A study of Sesbania grandiflora with 21 samples.

Results

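In leaves of Sesbania grandiflora, a leguminous tree, 37 of 97500 assembled genes met a rule for a higher mean level under DS and no higher mean level under Y. The rule was applied to library-scaled counts (CPM, a gene's count divided by the total count of its library, times 1000000). Its measure, d, is the mean of log2(CPM + 1) in a group minus the same mean in the group labelled ck. A gene was taken when at least 1 group mean reached 5 CPM, which 18177 genes did, when d was 0.7 or more in both DS-L and DS-S, and when d was under 0.3 in both Y-L and Y-S. The rule allowed up to 150 genes and found 37, so no gene that met it was dropped. The DS, Y and ck values therefore chose these genes. DS and Y are described against ck with no test, and DS+Y is set against DS and Y with no test. Tests are given for DS+Y against ck, where the choice of genes with low ck values favours higher DS+Y. They are also given for DS+Y-L against DS+Y-S, whose libraries enter the rule only through the minimum of 5 CPM. Of the 37 genes, 0 passed that minimum through a DS+Y group alone. The 18177 genes can include some that did, and these were not counted.

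The series holds 21 leaf libraries of oligo(dT)-enriched messenger RNA in 7 groups of 3, with the label ck for 1 of them. The other labels are DS, Y and DS+Y, each with the suffix L and again with S. The labels give no age, genotype, dose or duration, and do not spell out the letters. The title of the series names drought and salt stress applied together, but which letters stand for which stress, and what L and S mean, is not stated in the labels. Since ck has no suffix, treatment and suffix cannot be told apart in a contrast with ck. Whether replicates are different plants is not stated, so each p-value measures the spread between libraries, which may be technical.

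Plants meet dry soil and salty soil with a partly shared programme, because both lower the water available to the cell. The hormone abscisic acid closes the stomata and switches on protective genes, among them those for dehydrins and for enzymes that make compatible solutes. Salt adds the toxicity of sodium and chloride ions, which cells pump out or store in the vacuole. The deposited identifiers come from a de novo assembly and carry no names, descriptions or sequences, so no role can be given to any of the 37 genes. For the same reason only 4 identifiers are printed.

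Libraries held 16431940 to 20138058 counts. DS+Y-S replicate 1 had counts on 36755 genes, against 47279 to 61454 in the other 20 libraries, and the rule leaves it out. The DS+Y-S group is accordingly 2 libraries in what follows, and DS+Y-S replicate 1 is given separately. The tests used edgeR on the other 20 libraries and 41105 genes, and all 37 genes were among them.

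The 37 genes were of modest abundance in ck leaves by the length-corrected scale. Their mean FPKM (fragments per kilobase of transcript per 1000000 fragments) in ck ran from 0.14 to 91.9 with a median of 6.73, below the median of 17.7 FPKM over the 18177 genes. The medians of the 37 were 34.2 FPKM in DS-L, 14.9 in DS-S, 5.15 in Y-L and 7.50 in Y-S. Their effective length, the length implied by count and FPKM, had a median of 1187 bases, close to the 1223 bases of the 18177 genes. It ran from 20 to 4378 bases, and for the shortest genes the FPKM scale is unreliable. No 2 of the 37 shared a Trinity cluster, the assembler's unit of related contigs. Other genes of the same cluster existed in the table for 24 of them (56.2% of the 18177 genes), and such relatives can share reads. Bulk leaf RNA cannot tell fewer cells of a type from less RNA per cell.

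In DS-L, d of the 37 genes ran from 0.77 to 2.93 with a median of 1.42, and in DS-S from 0.70 to 2.03 with a median of 0.89. In Y-L it ran from -1.41 to 0.29 with a median of -0.07, and in Y-S from -0.65 to 0.29 with a median of 0.11. The gene just inside the DS limit stood at 0.703 and the nearest outside at 0.689. The nearest values to the Y limit were 0.293 inside and 0.307 outside. Genes with d of 0.7 or more in both DS groups numbered 839, so the 37 are 4.41% of them. All 37 met each limit by construction, as did 11.2% of the 18177 genes in DS-L, 7.43% in DS-S, 70.3% in Y-L and 71.8% in Y-S.

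The higher DS means came mainly from 3 of the 6 DS libraries. The median difference from the ck mean over the 37 genes was 1.84 in DS-L replicate 1, 2.79 in replicate 2 and 0.09 in replicate 3. In DS-S it was 0.67 in replicate 1, 0.18 in replicate 2 and 2.02 in replicate 3. Between ck libraries it went from -0.33 to 0.28, so DS-L replicate 3 and DS-S replicate 2 lay within the spread of ck. DS-L replicate 2 was the highest of its group in 35 of the 37 genes and replicate 3 the lowest in 35. This order is not particular to these genes. Among the 2035 genes with d of 0.7 or more in DS-L, replicate 2 was highest in 85.6% and replicate 3 lowest in 85.1%. In 22 of the 37, DS-L replicates 1 and 2 and DS-S replicate 3 were the 3 highest of the 15 ck, DS and Y libraries. All 3 DS-L libraries stood above all 3 ck libraries in 5 of the 37 (8.74% of the 18177 genes), and all 3 DS-S libraries in 10 (6.55%). In 2 genes all 6 DS libraries did. Neither this count nor the 22 above was taken over the 18177 genes. The name "raised by DS" thus describes group means and not every DS library.

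**Figure D1:**
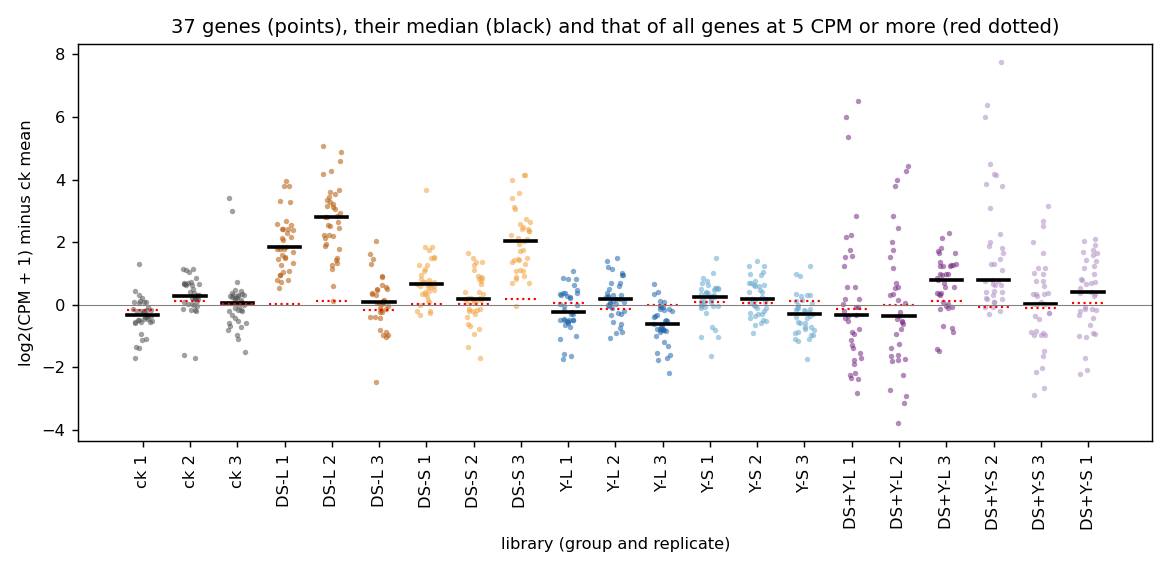
Difference of log2(CPM + 1) from the ck mean (vertical axis, log2 units) in each of 21 libraries (horizontal axis), with 1 point per gene for the 37 genes, their median as a black bar and the median of 18177 genes as a red dotted bar. DS-L replicates 1 and 2 and DS-S replicate 3 are the highest DS libraries at medians of 1.84, 2.79 and 2.02, and in DS+Y the points reach from -3.78 in DS+Y-L replicate 2 to 7.76 in DS+Y-S replicate 2.

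The combined treatment was the condition that did not choose the genes, apart from the ck libraries it is set against. In DS+Y-L the 37 genes spread over d from -1.83 to 3.60, with a median of 0.04 and quartiles of -0.71 and 0.91. In DS+Y-S they spread from -1.43 to 4.71, with a median of 0.37 and quartiles of -0.16 and 1.93. Both comparisons use the ck libraries that helped to choose the genes. The median over all 18177 genes was 0.01 in DS+Y-L and -0.08 in DS+Y-S. In DS+Y-L, 10 of the 37 genes had d of 0.7 or more (17.6% of the 18177 genes), 4 lay between, and 23 were under 0.3 (66.7%). In DS+Y-S, 15 had d of 0.7 or more (13.9%), 5 lay between, and 17 were under 0.3 (74.1%). At -0.7 or less stood 10 of the 37 in DS+Y-L (20.6%) and 3 in DS+Y-S (14.2%). The ck mean was exceeded by 21 of the 37 in DS+Y-L and by 24 in DS+Y-S, counts not taken over the 18177 genes. The medians changed sign when the genes were chosen again without a library: DS+Y-L gave -0.81 without DS-S replicate 3, -0.42 and -0.25 without ck replicates 1 and 2, and -0.29 without Y-L replicate 3. Leaving out DS+Y-L replicate 3 gave -0.14. Without DS-S replicate 1 it was 0.59. DS+Y-S gave -0.11 without DS-S replicate 3 and 1.0 without DS-S replicate 1.

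The libraries of DS+Y also differed among themselves. In DS+Y-L the median difference from ck was -0.34 in replicate 1, -0.36 in replicate 2 and 0.79 in replicate 3. In DS+Y-S it was 0.79 in replicate 2 and 0.04 in replicate 3. DS+Y-S replicate 2 was the higher of the pair in 34 of the 37 genes. It was also the higher in 63.7% of the 2035 genes with d of 0.7 or more in DS-L. Among the 1350 genes with d of 0.7 or more in DS-S it was the higher in 65.0%. The share of all counts that fell on the 37 genes was 0.0515% to 0.0752% in the ck libraries. It reached 0.226%, 0.398% and 0.0666% in DS-L replicates 1, 2 and 3, and 0.110%, 0.0832% and 0.285% in those of DS-S. In DS+Y-L it was 0.193%, 0.116% and 0.132%, and in DS+Y-S 0.368% and 0.0937% for replicates 2 and 3. The 6 Y libraries held between 0.0454% and 0.0956%. The sum rests largely on the 3 most abundant of the genes. Without them the other genes summed to 270.4 to 394.5 CPM in the ck libraries, to 542.3, 387.3 and 636.7 CPM in DS+Y-L replicates 1 to 3, and to 1388 and 370.3 CPM in DS+Y-S replicates 2 and 3. DS+Y-L replicate 2 and DS+Y-S replicate 3 were then within the ck range.

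**Figure D2:**
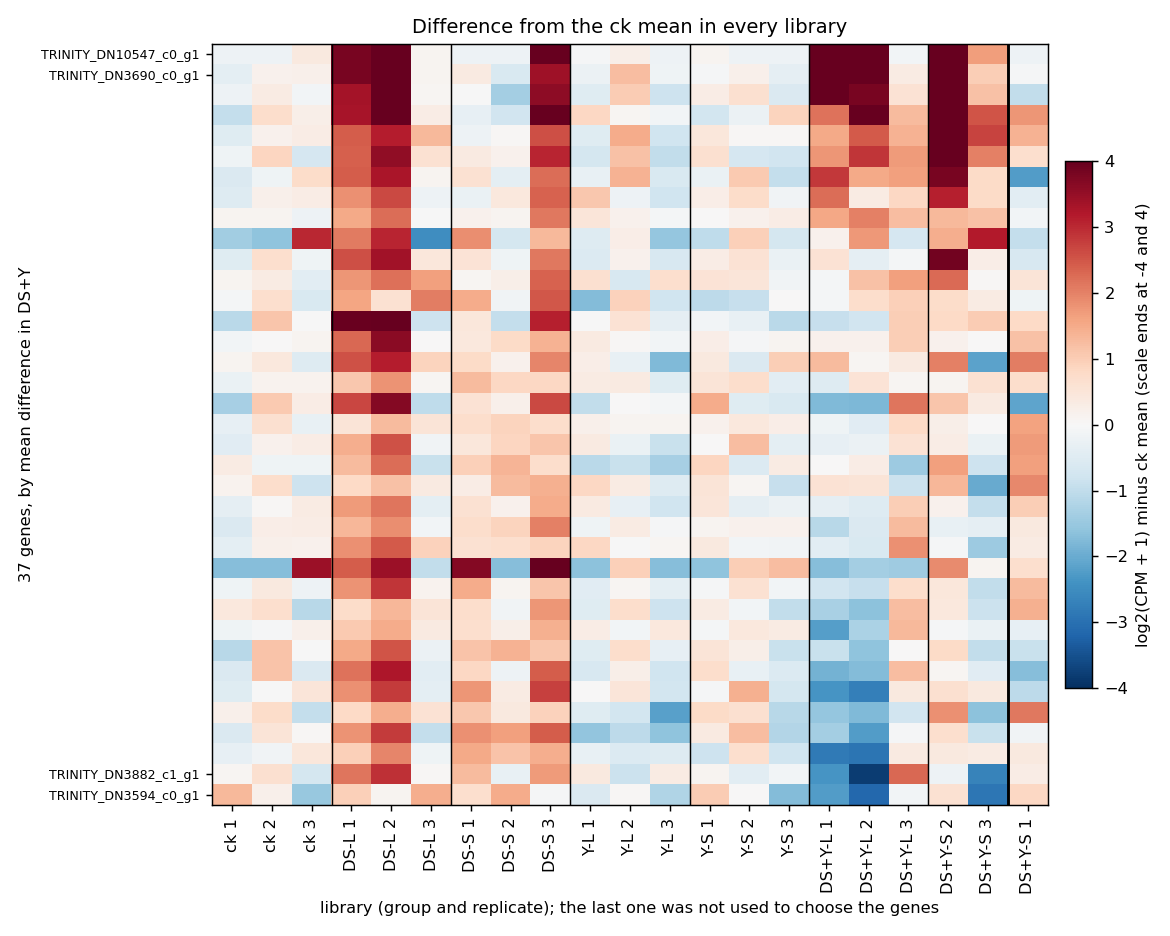
The 37 genes (rows, ordered by their mean difference in DS+Y) in 21 libraries (columns), coloured by log2(CPM + 1) minus the ck mean, with the colour scale ending at -4 and 4 and the 4 named genes labelled. The upper rows are red in DS+Y-L replicates 1 and 2 and DS+Y-S replicate 2, the lower rows blue in DS+Y-L replicates 1 and 2, while DS-L replicates 1 and 2 and DS-S replicate 3 are red throughout nearly all rows.

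Sorted by the same limits, the 37 genes fell into 3 kinds under DS+Y. In 10 genes d was 0.7 or more in both DS+Y groups, in 15 it was under 0.3 in both, and the remaining 12 were mixed. These are 27.0%, 40.5% and 32.4% of the list, against 10%, 61.2% and 28.8% of the 18177 genes. The kinds were defined after the values were seen, and nothing was tested between them.

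The 10 genes high in both DS+Y groups had a median d of 2.06 in DS+Y-L and 3.26 in DS+Y-S, from 0.91 to 3.60 and from 1.14 to 4.71. Their median differences by library were 2.20, 2.65 and 1.26 in DS+Y-L replicates 1 to 3, and 4.15 and 1.18 in DS+Y-S replicates 2 and 3. Under DS alone their median in DS-S was close to ck in 2 of the 3 libraries. It was 0.04 in replicate 1, -0.07 in replicate 2 and 2.81 in replicate 3. When the genes were chosen again without DS-S replicate 3, 23 genes met the rule, 13 of them among the 37. Only 4.35% of those 23 then had d of 0.7 or more in DS+Y-L, and the same share in DS+Y-S.

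The 15 genes low in both DS+Y groups had a median d of -0.57 in DS+Y-L and -0.22 in DS+Y-S, with DS values of 1.14 and 0.80 at suffix L and S. By library their medians were -1.11 and -1.25 in DS+Y-L replicates 1 and 2 but 0.79 in replicate 3, and 0.31 and -0.95 in DS+Y-S replicates 2 and 3. DS+Y-L replicate 3 thus stood above the ck mean in the median of these genes, and the other 2 libraries of its group below it. In ck the median length-corrected level was 8.31 FPKM for the high genes, 6.59 for the mixed and 6.10 for the low. Their median effective lengths were 1168, 1132 and 1237 bases.

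Among the 33 of the 37 genes that averaged 5 CPM or more in both DS groups, TRINITY_DN10547_c0_g1 and TRINITY_DN3690_c0_g1 had the highest d in DS+Y, taking the smaller of its 2 groups. TRINITY_DN10547_c0_g1 is described first. In ck it stood at 0, 0 and 0.489 CPM in replicates 1, 2 and 3. In DS-L it stood at 14.9, 26.9 and 0.219 CPM, and in DS-S at 0, 0 and 19.1 CPM. The 6 Y libraries held between 0 and 0.354 CPM. In DS+Y-L it reached 103, 23.5 and 0.0546 CPM, and in DS+Y-S 246 and 2.61 CPM in replicates 2 and 3. DS+Y-L and ck overlapped through DS+Y-L replicate 3, while both DS+Y-S libraries lay above ck. The fitted log2 fold change against ck was 8.23 in DS+Y-L (SE 2.69, edgeR adjusted p = 0.110). In DS+Y-S it was 9.59 (SE 2.85, edgeR adjusted p = 0.271). These folds moved with single libraries. In DS+Y-L the value was 6.20 without DS+Y-L replicate 1 (edgeR adjusted p = 0.336), 8.82 without replicate 3 (edgeR adjusted p = 0.0409) and 12.78 without ck replicate 3, the 1 ck library above 0 (edgeR adjusted p = 0.138). In DS+Y-S it was 4.17 without DS+Y-S replicate 2 (edgeR adjusted p = 0.553) and 14.13 without ck replicate 3 (edgeR adjusted p = 0.281).

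TRINITY_DN3690_c0_g1 showed the same libraries high. It stood at 0.488, 1.21 and 1.25 CPM in ck, at 25.9, 56.8 and 1.09 CPM in DS-L, and at 1.49, 0.276 and 19.6 CPM in DS-S. The Y libraries held 0.510 to 3.54 CPM. In DS+Y-L its replicates gave 125, 29.7 and 1.42 CPM, and in DS+Y-S replicates 2 and 3 gave 163 and 2.89 CPM. All 5 DS+Y libraries used were above the 3 ck libraries, but DS+Y-L replicate 3 exceeded the highest of them only slightly. Against ck, DS+Y-L gave 6.01 on the log2 scale (SE 1.82, edgeR adjusted p = 0.0973) and DS+Y-S gave 6.47 (SE 1.90, edgeR adjusted p = 0.259). The former was 4.07 without DS+Y-L replicate 1 (edgeR adjusted p = 0.335) and 6.58 without replicate 3 (edgeR adjusted p = 0.0316). The latter was 1.78 without DS+Y-S replicate 2 (edgeR adjusted p = 0.725), so the DS+Y-S value rests on that library. Its effective length is 127 bases, a value that does not give the length of the assembled sequence. Another gene, with an effective length of 167 bases, ran in parallel. That gene stood at 134, 44.6 and 3.88 CPM in DS+Y-L and 207 and 6.39 CPM in DS+Y-S, against 1.84 to 3.05 CPM in ck. All 3 were at or below 0.872 CPM in DS+Y-S replicate 1.

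One more gene of this kind was abundant and more even in DS+Y, and had the smallest adjusted p of the 37 in DS+Y-L against ck. It stood at 112, 112 and 91.3 CPM in ck and at 308, 422 and 248 CPM in DS+Y-L. In DS+Y-S it gave 258 and 237 CPM, with 95.9 CPM in DS+Y-S replicate 1. No DS+Y library used overlapped with ck, and the DS+Y-S replicate left out lay inside the ck range. In DS-L it was at 301, 497 and 103 CPM, so replicate 3 was again at the ck level. In DS-S it was at 117, 112 and 452 CPM, so replicates 1 and 2 were close to ck and replicate 3 far above it. Its log2 fold change in DS+Y-L against ck was 1.72 (SE 0.49, edgeR adjusted p = 0.0867), and in DS+Y-S 1.33 (SE 0.53, edgeR adjusted p = 0.454).

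TRINITY_DN3882_c1_g1 and TRINITY_DN3594_c0_g1 had the lowest d in DS+Y among the same 33, taking the larger of its 2 groups. TRINITY_DN3882_c1_g1 stood at 20.3, 30.7 and 11.5 CPM in ck, at 89.1, 153 and 20.2 CPM in DS-L and at 47.7, 15.6 and 65.8 CPM in DS-S. In DS+Y-L it was at 2.96 and 0.477 CPM in replicates 1 and 2 and at 98.3 CPM in replicate 3. In DS+Y-S it was at 16.6 and 2.22 CPM in replicates 2 and 3. Neither DS+Y group was separate from ck, and the DS+Y-L libraries lay on both sides of it. For that reason the mean of logs and the fitted mean differ in sign, with d of -1.28 but a fitted log2 difference of 0.66 in DS+Y-L (SE 1.10, edgeR adjusted p = 0.782). Without DS+Y-L replicate 3 the fit gave -3.35 (SE 0.96, edgeR adjusted p = 0.0444), and without replicate 2 it gave 1.24. DS+Y-S against ck gave -1.08 (SE 1.28, edgeR adjusted p = 0.842).

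TRINITY_DN3594_c0_g1 stood at 28.5, 12.8 and 3.21 CPM in ck, a spread that covers most of its other values. It was at 22.4, 12.0 and 31.7 CPM in DS-L and at 18.1, 32.6 and 10.6 CPM in DS-S. In DS+Y-L it was at 1.54, 0.371 and 10 CPM and in DS+Y-S at 17.4 and 0.611 CPM. All groups overlapped with ck, so this gene met the rule, with d of 0.85 and 0.70, without a separation of libraries. The fitted difference from ck on the log2 scale was -2.03 in DS+Y-L (SE 1.13, edgeR adjusted p = 0.315) and -0.81 in DS+Y-S (SE 1.24, edgeR adjusted p = 0.885). In DS+Y-S replicate 1 this pair stood at 23.9 and 20.3 CPM, within the ck range.

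**Figure D3:**
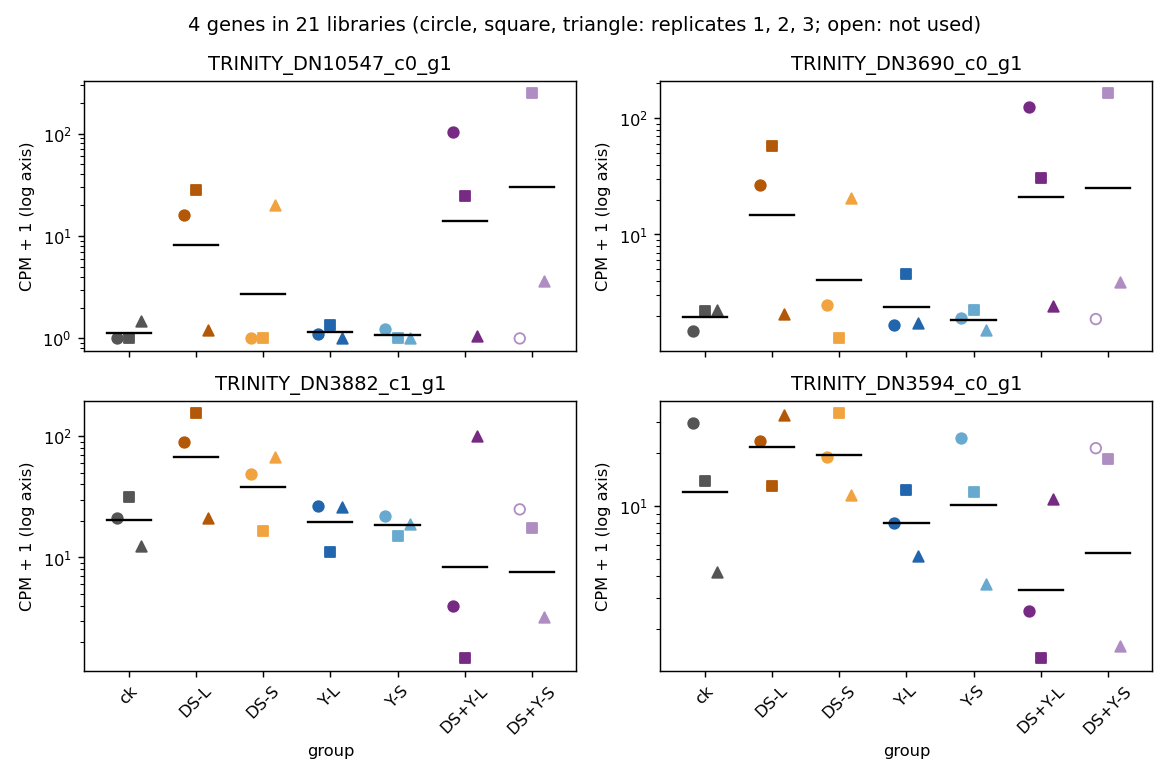
CPM + 1 on a log axis for the 4 named genes in 21 libraries by group, with replicates 1, 2 and 3 as circle, square and triangle, the open circle for DS+Y-S replicate 1, and the group mean of log2(CPM + 1) over the libraries used as a bar. In the upper pair DS-L replicates 1 and 2, DS-S replicate 3, DS+Y-L replicates 1 and 2 and DS+Y-S replicate 2 stand apart, and in the lower pair DS+Y-L replicates 1 and 2 and DS+Y-S replicate 3 are low.

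Over the whole table, edgeR called 45 of 41105 genes in DS+Y-L against ck (0.109%) and 1 in DS+Y-S against ck (0.00243%), at a Benjamini-Hochberg adjusted p under 0.05. None of the 37 genes was among them, with edgeR adjusted p of 0.0867 or more in DS+Y-L and 0.193 or more in DS+Y-S. In data simulated for DS+Y-L against ck at a spread of 0.461, the fit recovered 2% of 2-fold and 50% of 4-fold changes. A gene without a call can therefore still differ. At an unadjusted p under 0.05, 8 of the 37 were higher in DS+Y-L (10.7% of genes tested) and 2 lower (10%). In DS+Y-S, 11 of the 37 were higher (6.39%) and 0 lower (2.66%), where 9.05% of genes tested passed in either direction. The ck libraries helped to choose the 37 genes for low ck values, which by itself favours higher DS+Y. DESeq2 called 6 of the 37 in DS+Y-L and 4 in DS+Y-S, all higher, where it called 3503 of 40624 genes (8.62%) and 549 of 33490 (1.64%). Without DS+Y-L replicate 3, edgeR called 7 of the 37 in DS+Y-L against ck, 4 of them higher, and 3166 of 40833 genes in all (7.75%). All DS+Y-L libraries stood above all ck libraries in 9 of the 37 (14.5%) and below them in 0 (12.1%). Both DS+Y-S libraries did so in 9 (12.2%), and were below all ck libraries in 0 (14%).

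DS+Y was next set against DS at the same suffix, which by the labels differ in Y. Whether DS was given alike in both is not stated. The DS libraries were chosen for being high, which by itself favours lower values in DS+Y. The difference DS+Y-L minus DS-L had a median of -1.29 over the 37 genes, with quartiles of -2.24 and -0.51 and a range of -3.12 to 0.77. The median over the 18177 genes was -0.03. DS+Y-L was lower by 0.7 or more in 26 of the 37 (15.6% of the 18177) and higher by as much in 1 (11.3%). At suffix S the median was -0.74, with quartiles of -1.15 and 1.09, against -0.16 over the 18177 genes. It was 0.11 when the genes were chosen again without DS-S replicate 1. There 20 of the 37 were lower by 0.7 or more (11.5%) and 10 higher (10%). The libraries were separate in fewer genes. All DS+Y-L libraries were below all DS-L libraries in 3 of the 37 (6.9%), and above them in 0 (9.94%). Both DS+Y-S libraries were below all DS-S libraries in 11 (17.4%) and above them in 1 (5.22%).

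One of the 10 genes clear of ck in DS-S is described here, chosen after its values were seen. It stood at 18.6, 40.3 and 29.3 CPM in ck and at 103, 90.4 and 156 CPM in DS-S, with all DS-S libraries above ck. In DS-L it gave 100, 202 and 14.0 CPM, with replicate 3 below all ck libraries. In DS+Y-L it gave 10.2, 5.14 and 27.0 CPM, and in DS+Y-S 45.5 and 14.6 CPM in replicates 2 and 3. In DS+Y-S replicate 1 the gene was at 25.4 CPM, within the ck range. Its Y-L libraries, at 8.62 to 12.9 CPM, were also below all 3 ck libraries.

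The contrast of DS+Y with Y was the reverse question. The Y libraries were chosen for not being high, which by itself favours higher values in DS+Y. DS+Y-L minus Y-L had a median of 0.19 over the 37 genes, against 0.00 over the 18177, and DS+Y-S minus Y-S a median of 0.19, against -0.16. The upper quartiles were 1.10 and 1.65. DS+Y-L was higher by 0.7 or more in 13 of the 37 (13.1%) and lower by as much in 7 (15.3%). DS+Y-S was higher in 15 (7.82%) and lower in 3 (9.19%). Both DS+Y-S libraries lay above all Y-S libraries in 11 of the 37 (4.99%) and below them in 1 (12.5%). All DS+Y-L libraries lay above all Y-L libraries in 4 (8.55%) and below them in 0 (7.74%).

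DS+Y-L against DS+Y-S was the 1 contrast free of the libraries that set the rule's limits on d. The difference had a median of -0.55 over the 37 genes, with quartiles of -1.11 and -0.03, against 0.04 over the 18177. DS+Y-L was the lower in 29 of the 37, a count not taken over the 18177 genes. DS+Y-L was lower by 0.7 or more in 16 (12.3%) and higher by as much in 1 (8.26%). The lower side rests on DS+Y-S replicate 2, since the median over the 37 genes was -1.45 without replicate 3 and 0.26 without replicate 2. All DS+Y-L libraries were below both DS+Y-S libraries in 3 genes (5.58%), and above both in 0 (9.9%). edgeR called none of the 37 and 0 genes in all (0%), with edgeR adjusted p of 0.688 or more for the 37. At an unadjusted p under 0.05 it gave 3 of the 37 (6.33%), 1 of them higher in DS+Y-L (2.7%) and 2 lower (3.62%). DESeq2 called 0 of the 37 and 115 of 29912 genes in all (0.384%). Without DS+Y-L replicate 3, edgeR called 1 of the 37, lower in DS+Y-L, and 80 of 40833 genes (0.196%).

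Choosing the genes again without 1 library gave values in a library that had no part in the choice. For DS-L, the genes chosen without replicate 1 numbered 36 and stood 1.82 above the ck mean there (median), and those chosen without replicate 2 numbered 25 and stood 3.13 above it. The 51 genes chosen without replicate 3 stood at -0.03. For DS-S the medians were 0.22 in replicate 1, -0.12 in replicate 2 and 0.69 in replicate 3, from 62, 103 and 23 genes. Over all genes at 5 CPM or more, the same medians lay between -0.17 and 0.18. For held-out ck libraries the medians were -0.48, 0.37 and 0.03. Held-out DS medians above this ck range were thus those of DS-L replicates 1 and 2 and DS-S replicate 3. For Y-L the held-out medians were -0.01, 0.54 and -0.75, and for Y-S 0.48, 0.60 and 0.31. Those of Y-L replicate 2 and Y-S replicates 1 and 2 also lay above the ck range, so this was not particular to DS. The Y-S values exceed the limit of 0.3 that the rule sets on group means, each from genes chosen on the other libraries.

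**Figure D4:**
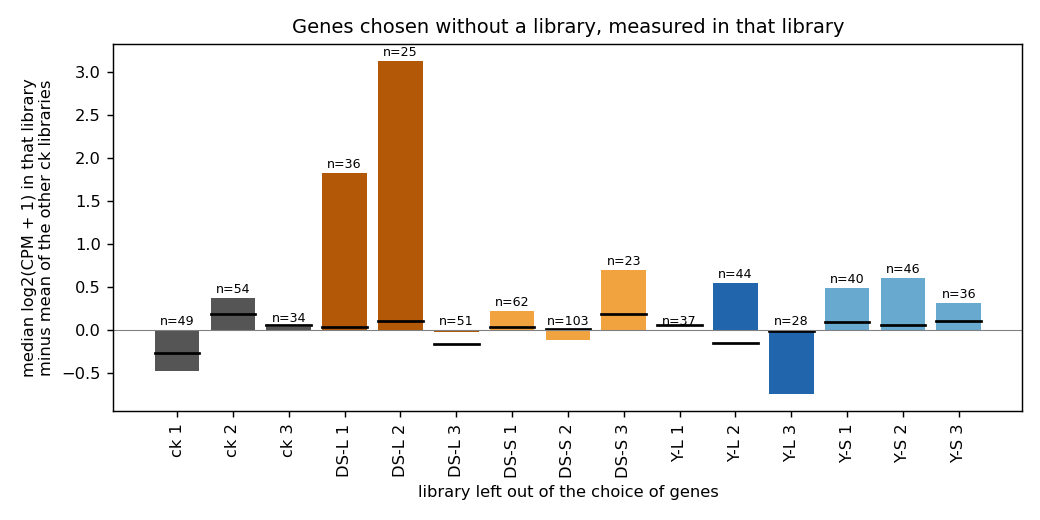
For each of 15 libraries, the genes chosen by the rule without that library, with their median log2(CPM + 1) in it minus the mean of the other ck libraries (bars, log2 units), the same median over all genes at 5 CPM or more (black line), and the number of genes chosen (n). DS-L replicates 1 and 2 reach 1.82 and 3.13, DS-L replicate 3 stands at -0.03 and DS-S replicate 2 at -0.12.

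Leaving out a ck library gave a comparison of DS+Y with ck in which neither side entered the rule's limits on d. The median of DS+Y-L minus that library was 0.31, -0.28 and 0.28 for ck replicates 1, 2 and 3, from 49, 54 and 34 genes. Over all genes it was 0.19, -0.09 and -0.07. For DS+Y-S it was 0.69, 0.15 and 0.61, against 0.10, -0.17 and -0.13 over all genes. The DS+Y-S median thus exceeded that of all genes with each ck library, and the DS+Y-L median with 2 of the 3. The shares of chosen genes at 0.7 or more were 38.8%, 29.6% and 38.2% in DS+Y-L, against 24.9%, 20.7% and 13.5% of all genes. In DS+Y-S they were 49.0%, 38.9% and 47.1%, against 20.4%, 17.8% and 9.80%. The same 3 choices gave 1.78, 1.04 and 1.55 for DS-L minus the ck library left out. For Y-S they gave 0.51, -0.20 and 0.01, and for Y-L 0.23, -0.51 and -0.08. With ck replicate 1 left out, 42.9% of the genes stood at 0.7 or more in Y-S, above the share in DS+Y-L. The DS+Y libraries are the same in all 3 values, so these are not independent of each other.

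Which genes met the rule depended on single libraries. Without ck replicate 1, 2 or 3, only 18, 18 and 16 of the 37 were still among the genes chosen. Without DS-S replicate 3 it was 13 of the 37, and without DS-L replicate 2 it was 22. Leaving out any other library of DS or Y kept 23 to 36 of them. In 6 of the 37 the ck libraries themselves were over 4-fold apart in CPM + 1.

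Genes chosen by the mirror rule and by both treatments were set beside the 37. The rule with DS and Y exchanged gave 61 genes, and 429 genes had d of 0.7 or more in all 4 single-treatment groups. In DS+Y-L the median d was 0.04 for the 37 genes, 0.68 for the 61 genes higher under Y only, and 1.69 for the 429 genes higher under both. In DS+Y-S it was 0.37, 0.92 and 1.83. Shares with d of 0.7 or more in both DS+Y groups were 27.0%, 41.0% and 80.9%, and shares under 0.3 in both were 40.5%, 9.84% and 2.56%. All 3 lists share the ck libraries, were chosen for low ck values, and were not tested against each other.

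**Figure D5:**
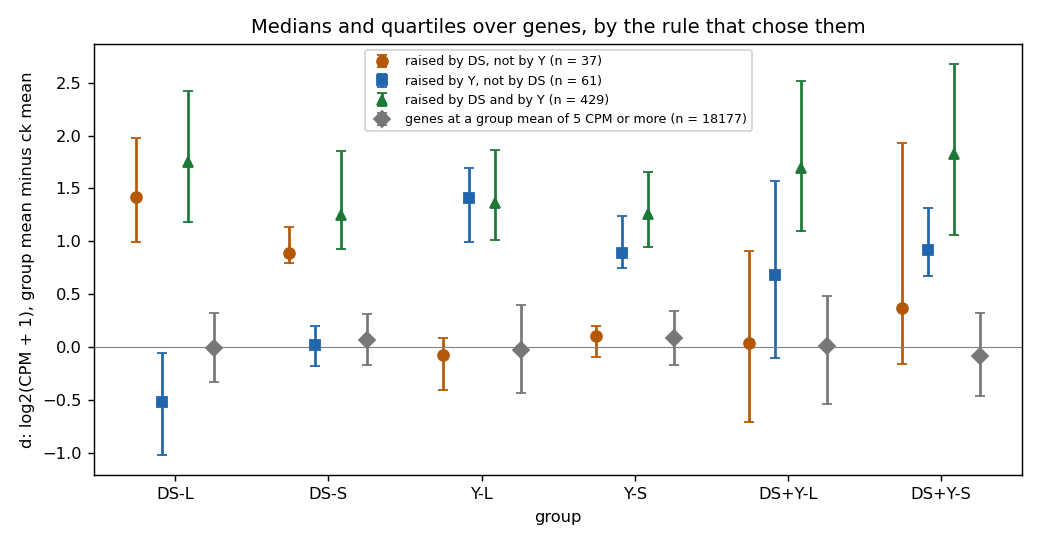
Median d (points) with quartiles (bars) in 6 groups for the 37 genes raised by DS and not by Y, the 61 genes of the mirror rule, the 429 genes raised by both and all 18177 genes at 5 CPM or more. In the DS+Y pair of groups the 37 genes have medians of 0.04 and 0.37, the lowest of the 3 chosen lists, and the 429 genes 1.69 and 1.83.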

How the data were processed

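The authors deposited 1 table with a whole-number count and an FPKM value per assembled gene and library, per the file headers. The aligner, counter, assembly settings and filters are unstated in the sources used here, as is whether estimated counts were rounded. Groups and replicate numbers come from the sample titles. CPM used column sums, and d used a pseudocount of 1, so folds of low genes are understated. FPKM served for levels between genes and for effective length, the median over libraries with 10 or more counts. edgeR 4.0.16 in R 4.3.3 (filterByExpr by group, TMM, glmQLFit and glmQLFTest, 7 groups in 1 fit, DS+Y-S replicate 1 left out) tested 41105 genes, with Benjamini-Hochberg adjustment over all of them. The common dispersion was 0.326. SE is the size of the log2 fold change divided by the square root of F. The fit was tested on data simulated for DS+Y-L against ck. At a simulated spread of 0.461 it recovered 2% of 2-fold, 50% of 4-fold, 78% of 8-fold and 98% of 16-fold changes. Of its 118 calls there, 4 were false. At a spread of 0.01 it recovered 100% at each of these folds, with 9 of 209 calls false. A gene without a call can thus still differ, above all by 4-fold or less. DESeq2 1.42.0 was an alternative.

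The contrasts of DS+Y with DS and with Y were fitted too, but they draw on libraries that chose the genes, so their calls are given only among the alternatives. The 37 genes, lists and tests were chosen with earlier results of these data known. The named genes are, among the 33 genes averaging 5 CPM or more in both DS groups, the 2 with the largest smaller d of the DS+Y groups and the 2 with the smallest larger d. Other genes described without an identifier were chosen after their values were seen. Because the deposited table pairs identifiers with no names, no list of stress genes or cell types could be counted.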

Additional observations from a re-analysis of the deposited data

Results flagged for a closer look

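DS+Y-S replicate 1, which no comparison above uses, showed a median difference from the ck mean of 0.39 over the 37 genes, above the highest ck library at 0.28 and against 0.05 over the 18177 genes. In it 16 of the 37 genes lay above all ck libraries, against 31.7% of the 18177 genes. In the same library 7 lay below all of them, a count not taken over the 18177 genes. The 37 genes held 0.0661% of its counts, inside the ck range of 0.0515% to 0.0752%, and 2 of them were at 0 counts. The kinds of gene were set by DS+Y-L and by replicates 2 and 3 of DS+Y-S, and not by DS+Y-S replicate 1. That choice by itself favours a difference between DS+Y-S replicate 1 and the rest of its group. The 10 genes high in both DS+Y groups had a median of -0.09 there, against 4.15 and 1.18 in replicates 2 and 3. The 15 genes low in both had a median of 0.83, against 0.31 and -0.95.

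In 1 of the 37 genes all 3 DS+Y-L libraries lay on one side of the ck mean and both DS+Y-S libraries on the other, as in 2.64% of the 18177 genes. It was at 0, 0 and 33.9 CPM in ck, at 0, 0.265 and 0.219 CPM in DS+Y-L and at 11 and 2.50 CPM in DS+Y-S replicates 2 and 3. In edgeR its log2 difference DS+Y-L against DS+Y-S was -5.33 (SE 2.71, edgeR adjusted p = 0.797). This gene also had the largest d in DS among the 37, 1.62 by the smaller of the 2 groups, although ck replicate 3 was close to DS-L replicate 2, at 34.3 CPM.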

How the results depend on the processing

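Of the rule's settings, a DS minimum of 1 left 11 genes and a Y ceiling of 0 left 10. With that ceiling the median d in DS+Y-L was -0.68, and 10% of genes in DS+Y-L and 20% in DS+Y-S had d of 0.7 or more. A pseudocount of 5 gave 46.9% at 0.7 or more in DS+Y-L and 25% under 0.3 in DS+Y-S. Without single libraries, genes meeting the rule ran from 23 to 103, the median d from -0.81 to 0.59 in DS+Y-L and from -0.11 to 1.0 in DS+Y-S, and the medians from -1.93 to -0.72 for DS+Y-L minus DS-L, -1.07 to 0.11 for DS+Y-S minus DS-S and -1.45 to 0.26 for DS+Y-L minus DS+Y-S. Shares at 0.7 or more ran from 4.35% to 45.2% in DS+Y-L and from 4.35% to 58.1% in DS+Y-S, and shares under 0.3 from 41.9% to 95.7% and from 24.3% to 69.6%. The lowest shares at 0.7 or more came without DS-S replicate 3. Shares were added after the data were seen. TMM scaling moved the median of all genes from 0.01 to 0.10 in DS+Y-L and from -0.08 to 0.02 in DS+Y-S, and chose 32 genes with medians of 0.06 and 0.46.

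edgeR with its low-count filter called 0 of the 37 genes in every contrast, and 0 genes in all in those with DS or Y. Without the filter, the SE of TRINITY_DN10547_c0_g1 in DS+Y-L against ck fell from 2.69 to 0.61. Calls over all genes in that contrast rose from 45 to 5244. Of the 37, edgeR without the filter called 12 in DS+Y-L against ck, 10 in DS+Y-S against ck and 16 in DS+Y-L against DS-L. It called 11 in DS+Y-S against DS-S, 8 in DS+Y-L against Y-L, 11 in DS+Y-S against Y-S and 7 in DS+Y-L against DS+Y-S. Of the 92756 genes it called 5.65%, 2.27%, 3%, 1.44%, 2.66%, 1.03% and 1.29% in the same order. DESeq2 called 6, 4, 5, 0, 1, 3 and 0 of the 37, and 8.62%, 1.64%, 2.26%, 0.411%, 2.12%, 0.167% and 0.384% of the genes it tested. The contrasts with DS and Y use libraries that chose the genes, so their calls support nothing. Those with ck also share libraries with the rule, and the choice of low ck values favours calls of higher DS+Y. Without single libraries edgeR called 0 to 7, 0 to 0, 0 to 10, 0 to 0, 0 to 2, 0 to 0 and 0 to 1. Every call above 0 there came without DS+Y-L replicate 3, where 7.75%, 2.61%, 2.3% and 0.196% of 40833 genes were called in DS+Y-L against ck, DS-L, Y-L and DS+Y-S. The cause was not tested. TRINITY_DN3594_c0_g1 in DS+Y-S changed sign to a log2 fold change of 0.42 without ck replicate 1 and 0.21 without DS+Y-S replicate 3, within a range of -4.52 to 0.42 without single libraries. TRINITY_DN3882_c1_g1 in DS+Y-L changed to -3.35 without DS+Y-L replicate 3, in a range of -3.35 to 1.24. TRINITY_DN10547_c0_g1 ran from 6.20 to 12.78 in DS+Y-L and from 4.17 to 14.13 in DS+Y-S, and TRINITY_DN3690_c0_g1 from 4.07 to 6.58 and from 1.78 to 7.50.

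Replicate numbers gave no sign of pairing in the median, and whether same-numbered libraries share a plant or batch is not stated. Same-numbered libraries of different groups deviated together at correlations from -0.47 to 0.62 (median -0.01), and 4 of 20 correlated best with their own number. With the replicate number as a block, edgeR called 0 of the 37 in each contrast, and 0 genes in place of 45 in DS+Y-L against ck. Depth limits genes near 0 counts, and 4 of the 37 were at 0 in at least 1 of the 20 libraries.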
